A study of Mus musculus with 6 samples.

Results

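The Hippo pathway and the genes that its effectors YAP and TAZ switch on were followed here in sciatic nerve of mice at postnatal day 14. The set held 37 genes, chosen by name as Hippo kinases, adaptors, YAP/TAZ/TEAD factors and targets, and all 37 were found by symbol among the 55335 genes of the expression table, Ccn1 being the current name of Cyr61 and Ccn2 that of Ctgf. Polyadenylated RNA was sequenced from 6 nerve lysates. The 3 control libraries carried RhoAfl/fl, a floxed allele of the small GTPase gene RhoA, and the 3 icKO libraries carried the same floxed allele plus ChATCreERT2, a drug-inducible Cre recombinase under the choline acetyltransferase gene, which is active in cholinergic neurons such as spinal motoneurons. Both groups thus share the floxed RhoA allele and differ by the Cre transgene as well as by any deletion it made. The labels give neither the induction schedule nor the drug received by each group, nor do they say that each library came from its own mouse, so p-values measure the spread between these samples, which may be technical.

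In the Hippo pathway, cell contact, stretch and polarity signals act through the MST kinases and the LATS kinases, which phosphorylate the coactivators YAP and TAZ and hold them in the cytoplasm. Unphosphorylated YAP and TAZ enter the nucleus, bind TEAD transcription factors and raise the transcription of genes such as Ccn1 and Ccn2. RhoA and actin tension are known inputs that keep YAP and TAZ active. In Schwann cells, YAP and TAZ are known to be needed for axon sorting and for myelination. The kinases act on YAP and TAZ protein, so a transcript level does not measure the activity of the pathway.

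Values are FPKM, fragment numbers scaled to transcript length and library size, which allow levels to be compared between genes. The depth, estimated from the step that 1 fragment makes in low values, was 17200000 to 20600000 fragments per library. The floxed gene Rhoa was at 36.5, 39.0 and 38.0 FPKM in control nerves against 36.4, 33.6 and 33.2 FPKM in icKO nerves, which did not pass (limma, Benjamini-Hochberg adjusted p = 0.195). Chat was at 0.012 FPKM in 1 control library and listed at 0 in the other 5. Schwann cell markers were present in every library, with all 11 above 1 FPKM on average and a summed level of 18078 to 21730 FPKM in control nerves against 20164 to 22452 FPKM in icKO nerves. The libraries differed in other tissue. The 15 skeletal muscle markers summed to 1325, 260 and 359.8 FPKM in control nerves against 25.1, 40.1 and 1500 FPKM in icKO nerves. The 9 adipocyte markers summed to 481 to 585 FPKM in control nerves against 108 to 179 FPKM in icKO nerves, and all 9 fell. The 8 fibroblast markers summed to 940.5 to 1715 and 759 to 778 FPKM, with 5 lower and 1 higher. In a lysate, fewer cells of a type and less RNA per cell cannot be told apart. Control replicate 2 expressed Xist and no Ddx3y, while the other 5 libraries expressed Ddx3y, so sex is unequal between the groups.

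TEAD factors bind a short core motif, CATTCC, and the stretch before the transcription start of several members carried it. Promoters were taken from RefSeq on GRCm38.p6, searched over the 250 bases before the start, on both strands (GGAATG is the reverse complement, and the 2 words do not overlap). Of the 37 members, 28 had an entry. Entries were missing for Stk3, Map4k4, Dchs1, Limd1, Tead1, Tead4, Ccn2, Nuak2 and Dlc1. The core motif was in 16 of the 33 promoter entries of members (48.5%), and in 12.6% of the 32851 entries of all genes. By gene, 14 of 28 members held it, beside 14.4% of all 27025 genes with an entry. Several members were listed as targets of YAP and TAZ to begin with, and no test was made of this difference. The CArG box, the site of the actin-responsive factor SRF, was in no promoter entry of a member and in 1.47% of all entries.

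The upstream stretches of Ccn1 and of Wwtr1 (the TAZ gene), which both rose, are shown whole, 5′ to 3′ on the strand of the gene, with the motif in capitals. The first lies at chr3:145649986-145650235 and the second at chr3:57575911-57576160, both on the minus strand, and no annotated exon (GENCODE M21) lies in either, though the window of the other Wwtr1 entry, which is not shown, holds a Wwtr1 exon.
Ccn1: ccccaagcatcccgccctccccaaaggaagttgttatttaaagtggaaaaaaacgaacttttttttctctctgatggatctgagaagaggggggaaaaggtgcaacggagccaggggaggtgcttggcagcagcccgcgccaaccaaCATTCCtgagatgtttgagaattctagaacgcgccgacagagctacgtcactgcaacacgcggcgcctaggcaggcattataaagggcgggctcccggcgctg
Wwtr1: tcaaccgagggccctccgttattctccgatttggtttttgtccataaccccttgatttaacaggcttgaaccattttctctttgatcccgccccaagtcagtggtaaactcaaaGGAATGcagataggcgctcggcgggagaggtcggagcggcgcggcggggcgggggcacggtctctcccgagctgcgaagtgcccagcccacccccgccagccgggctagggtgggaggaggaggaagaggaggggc

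Short stretches of 30 bases show the motif in further members: Tead3 (chr17:28350701-28350730, minus strand), which rose and has the motif in 2 copies side by side, Wwc2 (chr8:47990613-47990642, minus), which also rose, and Yap1 (chr9:8004720-8004749, minus) and Vgll3 (chr16:65815114-65815143, plus), which fell. Ajuba (chr14:54577819-54577848, minus), Amotl2 (chr9:102717727-102717756, plus) and Ankrd1 (chr19:36119950-36119979, minus) hold it as well and did not pass or were not tested. The searched windows behind the stretches of Tead3, Wwc2, Amotl2 and Ankrd1 hold an annotated exon of the same gene and that of Yap1 an exon of Gm45494, while those of Vgll3 and Ajuba hold none.
Tead3: ccgggctCATTCCgtaCATTCCggccatcc
Wwc2: ctcaGGAATGtggcggcgaGGAATGtgcat
Yap1: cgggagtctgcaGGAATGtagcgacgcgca
Vgll3: cccgcctccccaCATTCCggctaccctgcc
Ajuba: aCATTCCacagtgcccctccgcgCATTCCa
Amotl2: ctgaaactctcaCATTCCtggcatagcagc
Ankrd1: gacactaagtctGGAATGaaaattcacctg

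The motif was present in members of either direction. All 4 members that rose and had an entry held it (Ccn1, Tead3, Wwc2 and Wwtr1), as did 2 of the 5 that fell and 7 of the 16 that did not pass. Over all tested genes with an entry, 12.8% of those that rose, 13.9% of those that fell and 12.6% of the others held it. A match shows that these letters are in the window, not that a factor binds there.

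Of the 37 members, 33 reached the mean of 1 FPKM needed for testing. In limma, 11 of the 33 (33.3%) passed a Benjamini-Hochberg adjusted p of 0.05, a share below the 42.9% of all 12860 tested genes. Of these, 5 rose (15.2%, against 20.8% of all tested genes) and 6 fell (18.2%, against 22.1%). The libraries of both groups did not overlap in 15 members, 9 with icKO above and 6 with icKO below, while 57.2% of all tested genes did not overlap (28.4% above and 28.9% below). The median difference of the members was 0.09 on the log2(FPKM + 1) scale and that of all tested genes -0.01. The share of members called was thus no higher than that of all tested genes. When a single library was left out, 3 or 4 members rose and 2 to 7 fell. Without control replicate 1 and icKO replicate 3, the libraries richest in muscle transcripts, 3 rose and 5 fell.

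**Figure D1:**
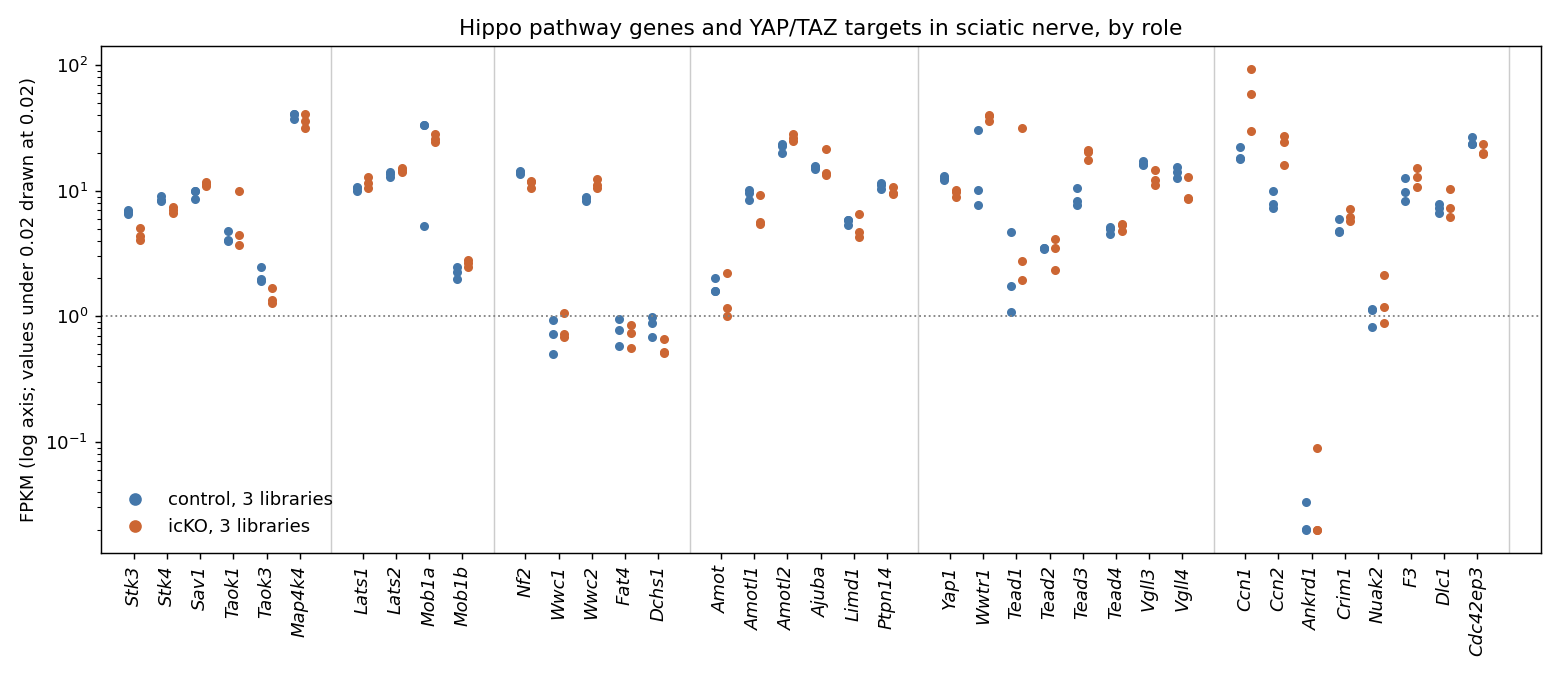
FPKM of each member (log axis) in the 3 control and the 3 icKO libraries, ordered by role from MST kinases at the left to YAP/TAZ targets at the right. Points of Ccn1, Ccn2 and Tead3 separate by group with icKO above, Mob1a has 1 low control library and Tead1 1 high icKO library, and Ankrd1 lies below 0.1 FPKM throughout (values under 0.02 are drawn at 0.02).

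Of the YAP/TAZ targets, the matricellular genes Ccn2 and Ccn1 rose. Ccn2 (ENSMUSG00000019997), which encodes a secreted matrix-associated protein also called CTGF, was at 9.99, 7.86 and 7.29 FPKM in control nerves against 27.5, 16.1 and 24.3 FPKM in icKO nerves. Every icKO library lay above every control library, and the mean was 2.70 times as high. The difference was 1.31 on the log2(FPKM + 1) scale (SE 0.21, limma, Benjamini-Hochberg adjusted p = 0.00363), and it passed in every alternative tried. Its relative Ccn1 (ENSMUSG00000028195), or CYR61, was at 22.3, 18.0 and 18.2 FPKM in control nerves against 59.3, 29.8 and 93.4 FPKM in icKO nerves. Again the groups did not overlap, but the icKO libraries differed widely among themselves, with replicate 2 closest to control in both genes. The difference of Ccn1 was 1.46 (SE 0.38, limma adjusted p = 0.0208). It did not pass without control replicate 2, control replicate 3 or icKO replicate 1 (limma adjusted p = 0.0612, 0.0634 and 0.0644) or without a filter (0.0517), in a range of 0.00368 to 0.0644 over all alternatives.

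The other targets did not follow. Ankrd1, a cardiac ankyrin repeat protein gene and a common YAP reporter in cultured cells, was at 0 to 0.033 FPKM in control nerves against 0 to 0.089 FPKM in icKO nerves, about 0 to 3.5 fragments, and was not tested. Crim1, which encodes a membrane protein that binds growth factors, was at 4.66, 5.95 and 4.80 FPKM in control nerves against 7.13, 5.71 and 6.14 FPKM in icKO nerves (limma adjusted p = 0.118, 95% interval of the difference -0.02 to 0.54). F3, tissue factor, was at 8.23, 12.6 and 9.73 against 15.2, 12.9 and 10.8 FPKM (limma adjusted p = 0.179, interval -0.10 to 0.74). In both genes the groups overlapped. Nuak2, a stress kinase gene, was at 0.82 to 1.15 FPKM in control nerves against 0.88 to 2.13 FPKM in icKO nerves. Dlc1, a GTPase-activating protein for RhoA, was at 6.71 to 7.83 against 6.20 to 10.3 FPKM, and its interval ran from -0.31 to 0.49. Cdc42ep3, an effector of CDC42, was the only target with a lower mean in icKO, at 26.9, 23.7 and 23.5 FPKM against 19.6, 23.5 and 19.9 FPKM (limma adjusted p = 0.121). Of 7 tested targets, 2 rose (28.6%), none fell (none at an unadjusted limma p under 0.05 either) and 5 did not pass, and 6 of the 7 had a positive difference. Of all 12860 tested genes, 20.8% rose, 22.1% fell and 6303 had a positive difference. The share of targets called was 28.6%, against 42.9% of all tested genes.

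The coactivators moved apart. Yap1 (ENSMUSG00000053110), the YAP gene, was at 12.2, 13.1 and 12.6 FPKM in control nerves against 9.70, 8.95 and 10.2 FPKM in icKO nerves. All icKO libraries lay below all control libraries. The icKO mean was 0.76 of the control mean, a difference of -0.37 (SE 0.08, limma adjusted p = 0.0112). The fall passed in every alternative tried, in the weakest of them only just (limma adjusted p = 0.04998). Wwtr1 (ENSMUSG00000027803), the gene of TAZ, was at 7.77, 10.2 and 30.2 FPKM in control nerves against 39.7, 40.1 and 35.9 FPKM in icKO nerves. The icKO libraries were close to each other, whereas control replicate 3 was near the icKO level and the other 2 control libraries far below it. The rise of 1.44 (SE 0.44, limma adjusted p = 0.0368) therefore rests on control replicates 1 and 2. It passed in 1 of 6 single-library omissions, that of control replicate 3 (difference 1.99, limma adjusted p = 0.00284). Without control replicate 1 or 2 the difference was 1.08 and 1.26 and did not pass (limma adjusted p = 0.0888 and 0.106), nor did it pass without the 2 muscle-rich libraries (0.127), without icKO replicate 1, 2 or 3 (0.0946, 0.0948 and 0.0682), without a filter (0.0835) or with the muscle markers as a covariate (0.0928).

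**Figure D2:**
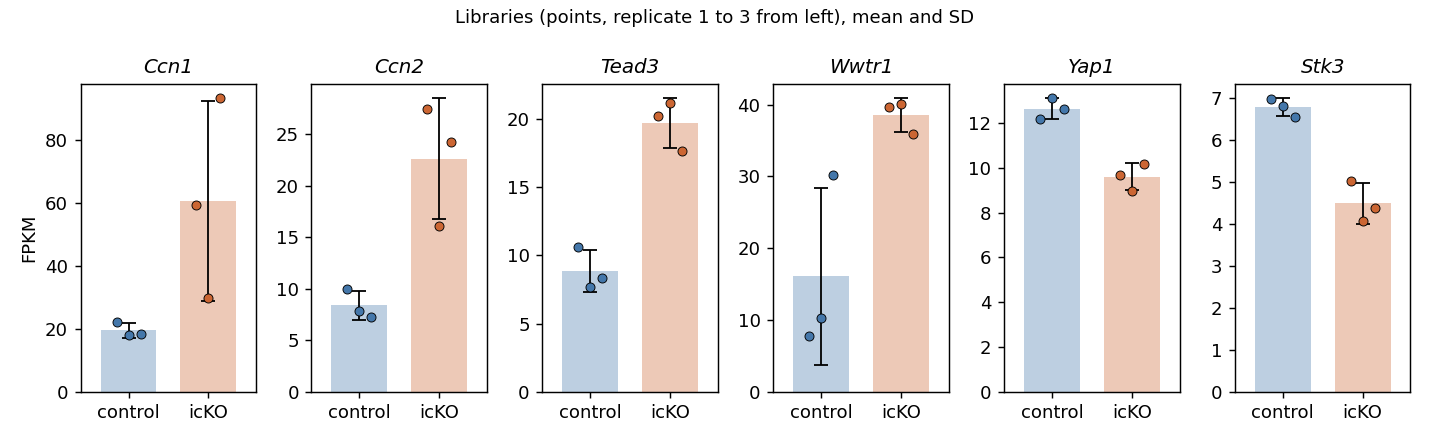
FPKM (linear axes from 0, a separate scale for each gene) of 6 members that passed, with each library as a point, replicate 1 to 3 from left to right, bars at the group mean and error bars of 1 SD (n = 3). Ccn1, Ccn2, Tead3 and Wwtr1 were higher and Yap1 and Stk3 lower in icKO, and the third control library of Wwtr1 (30.2 FPKM) stands near the icKO libraries.

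Among the TEAD factors, which carry YAP and TAZ to DNA, Tead3 alone passed. Tead3 (ENSMUSG00000002249) was at 10.6, 7.70 and 8.31 FPKM in control nerves against 20.2, 21.2 and 17.7 FPKM in icKO nerves. The groups were well apart, with means of 8.87 ± 1.53 and 19.7 ± 1.82 FPKM (SD, n = 3 each). The difference was 1.08 (SE 0.13, limma adjusted p = 0.00156), the smallest adjusted p of all members, and it passed in every alternative. Tead4 lay at 4.53 to 5.17 FPKM in control nerves against 4.80 to 5.42 FPKM in icKO nerves, with an interval of -0.14 to 0.27. Tead2 was at 3.497, 3.41 and 3.49 FPKM in control nerves against 3.49, 4.11 and 2.32 FPKM in icKO nerves. These 2 genes overlapped between groups and did not pass (limma adjusted p = 0.553 and 0.727). Tead1 was at 1.74, 4.70 and 1.08 FPKM in control nerves against 31.7, 1.93 and 2.78 FPKM in icKO nerves, so a single icKO library stood far above all others. Its difference of 1.159 (SE 0.92) did not pass and was 0.06 without icKO replicate 1 (limma adjusted p = 0.341 and 0.925). Tead1 has 15 annotated transcripts, and which of them gave these values was not tested.

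Of the vestigial-like cofactors, which compete with YAP and TAZ for TEAD, both had lower means in icKO nerves. Vgll3 was at 16.4, 17.4 and 15.9 FPKM in control nerves against 11.2, 14.7 and 12.2 FPKM in icKO nerves, a fall with no overlap (difference -0.37, SE 0.11, limma adjusted p = 0.0335). It did not pass without a filter or with quantile or median-of-ratios scaling (limma adjusted p = 0.058, 0.0548 and 0.0555) and passed in 1 of 6 single-library omissions, that of icKO replicate 2. Vgll4 was at 12.7, 15.6 and 14.2 FPKM in control nerves against 8.72, 12.9 and 8.60 FPKM in icKO nerves. Here icKO replicate 2 reached the control range, and the difference of -0.47 (SE 0.16) had a limma adjusted p of 0.0547. Without that library it was -0.65 (limma adjusted p = 0.00824).

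**Figure D3:**
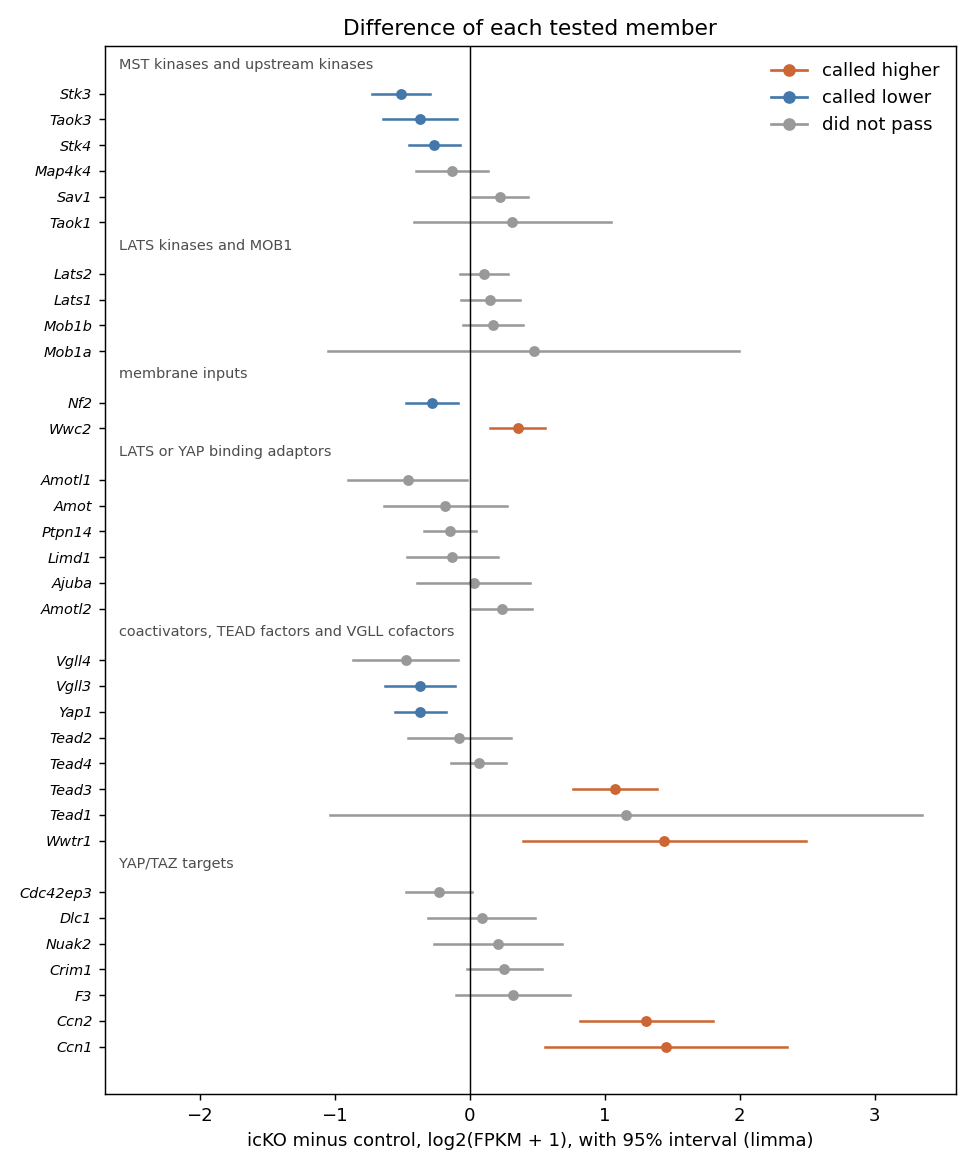
Difference of icKO minus control on the log2(FPKM + 1) scale with its 95% interval (limma) for the 33 tested members, grouped by role and coloured by call. The intervals of Ccn1, Ccn2, Tead3 and Wwtr1 lie to the right of 0, those of Yap1 and Stk3 to the left, and those of Mob1a and Tead1 span more than 3 units.

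The upstream kinases were lower where they passed. Of 6 tested genes of this step, the scaffold gene Sav1 included, 3 fell (50%, against 22.1% of all tested genes) and none rose (against 20.8%). Stk3 (ENSMUSG00000022329), which encodes the kinase MST2, was at 6.98, 6.81 and 6.56 FPKM in control nerves against 5.03, 4.07 and 4.37 FPKM in icKO nerves. The groups did not overlap, and the fall of 0.51 on the log2 scale (difference -0.51, SE 0.09, limma adjusted p = 0.00543) passed in every alternative. Stk4, the gene of MST1, was at 8.30, 9.12 and 8.47 against 7.06, 6.64 and 7.41 FPKM, and Taok3, a kinase that acts on MST, at 1.99, 2.47 and 1.92 against 1.34, 1.26 and 1.67 FPKM. Neither overlapped. Their differences of -0.26 and -0.37 (limma adjusted p = 0.0351 and 0.0398) passed only without icKO replicate 3 among the fits leaving out 1 library, and neither passed with the muscle covariate (limma adjusted p = 0.0893 and 0.104). Taok3 also did not pass without a filter or with quantile scaling (limma adjusted p = 0.088 and 0.0566).

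Sav1, the scaffold of the MST kinases, was at 8.56, 10.0 and 10.0 FPKM in control nerves against 10.9, 11.7 and 11.3 FPKM in icKO nerves. All icKO values were above all control values, but the difference of 0.23 did not pass (limma adjusted p = 0.0778; 0.0487 with median-of-ratios scaling). Map4k4, a kinase that acts on LATS beside MST and the most abundant of the members in control nerves, was at 37.2, 40.8 and 40.9 against 36.3, 31.6 and 41.2 FPKM (limma adjusted p = 0.383). Taok1 was at 3.96 to 4.77 FPKM in control nerves against 9.97, 4.42 and 3.68 FPKM in icKO nerves, where replicate 1 stood apart as it did for Tead1. Its difference was 0.32, and -0.06 without that library.

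None of the 4 genes of the next step, the LATS kinases and their MOB1 coactivators, passed, against 42.9% of all tested genes. Lats1 was at 10.0, 10.6 and 10.5 FPKM in control nerves against 10.5, 11.6 and 12.9 FPKM in icKO nerves, and Lats2, itself a target of YAP in many cells, at 13.6, 14.0 and 13.0 against 14.0, 14.8 and 15.1 FPKM. The 95% intervals of their differences were -0.07 to 0.37 and -0.07 to 0.28. Mob1b was at 1.99 to 2.46 FPKM in control nerves against 2.46 to 2.81 FPKM in icKO nerves (limma adjusted p = 0.17). Mob1a was at 5.28, 33.6 and 33.5 FPKM in control nerves against 25.9, 24.5 and 28.4 FPKM in icKO nerves. The low value of control replicate 1 set its direction, since the difference of 0.47 (limma adjusted p = 0.578) became -0.35 without that library (limma adjusted p = 0.0429). Lats2 and Mob1b did not overlap between the groups and Lats1 and Mob1a did, while 57.2% of all tested genes did not overlap. At an unadjusted limma p under 0.05 none of the 4 passed either.

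Genes that feed the kinases from the membrane went both ways. Nf2, the gene of the tumour suppressor merlin, whose loss gives rise to schwannomas, was at 14.2, 13.6 and 14.2 FPKM in control nerves against 11.8, 10.5 and 11.96 FPKM in icKO nerves. The groups did not overlap (difference -0.28, SE 0.08, limma adjusted p = 0.0312), and the call held in 1 of the 6 fits leaving out a library, that without icKO replicate 3. Wwc2, a KIBRA family scaffold that activates LATS, was at 8.70, 8.89 and 8.34 against 11.2, 10.5 and 12.5 FPKM. It rose in all 3 icKO libraries (difference 0.36, SE 0.09, limma adjusted p = 0.0157), though not without control replicate 3 (limma adjusted p = 0.0643) or without both muscle-rich libraries (0.0573). Wwc1 (KIBRA) and the large cadherins Fat4 and Dchs1 were below 1 FPKM on average and were not tested. Dchs1 was at 0.68, 0.99 and 0.88 FPKM in control nerves against 0.52, 0.66 and 0.51 FPKM in icKO nerves, with icKO below control in each library, while Wwc1 (0.50 to 0.93 and 0.69 to 1.07 FPKM) and Fat4 (0.58 to 0.95 and 0.56 to 0.85 FPKM) overlapped.

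None of the 6 adaptors that bind LATS or YAP passed, against 42.9% of all tested genes. In several of the 6, icKO replicate 3 stood against the other 2 icKO libraries. Amotl1, an angiomotin that holds YAP at junctions and actin, was at 8.51, 9.67 and 10.2 FPKM in control nerves against 5.67, 5.43 and 9.19 FPKM in icKO nerves. Replicate 3 thus lay within the control range and the other 2 well below it. The difference was -0.46 (SE 0.19, limma adjusted p = 0.0878), and -0.67 without icKO replicate 3 (limma adjusted p = 0.00527). Amot was at 1.58, 1.598 and 2.02 against 1.01, 1.162 and 2.21 FPKM (limma adjusted p = 0.478; 0.0454 without icKO replicate 3). The LIM protein genes Ajuba and Limd1, whose products restrain LATS, showed the same layout, at 15.04 to 15.9 FPKM in control against 13.8, 13.3 and 21.4 FPKM in icKO for Ajuba, and at 5.29 to 5.89 FPKM against 4.31, 4.72 and 6.54 FPKM for Limd1. Ajuba had a difference of 0.03, and -0.18 without icKO replicate 3 (limma adjusted p = 0.898 and 0.105).

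Amotl2, the angiomotin that is also a YAP target, differed from its relatives in that all icKO libraries lay above control, at 26.3, 28.1 and 24.7 against 22.9, 20.1 and 23.5 FPKM (difference 0.24, limma adjusted p = 0.0756). Ptpn14, a phosphatase that binds YAP, was at 10.4 to 11.5 FPKM in control nerves against 9.45 to 10.6 FPKM in icKO nerves. By unadjusted limma p, Amotl1 and Amotl2 were under 0.05 (0.0443 and 0.0364) and the other 4 adaptors were not.

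**Figure D4:**
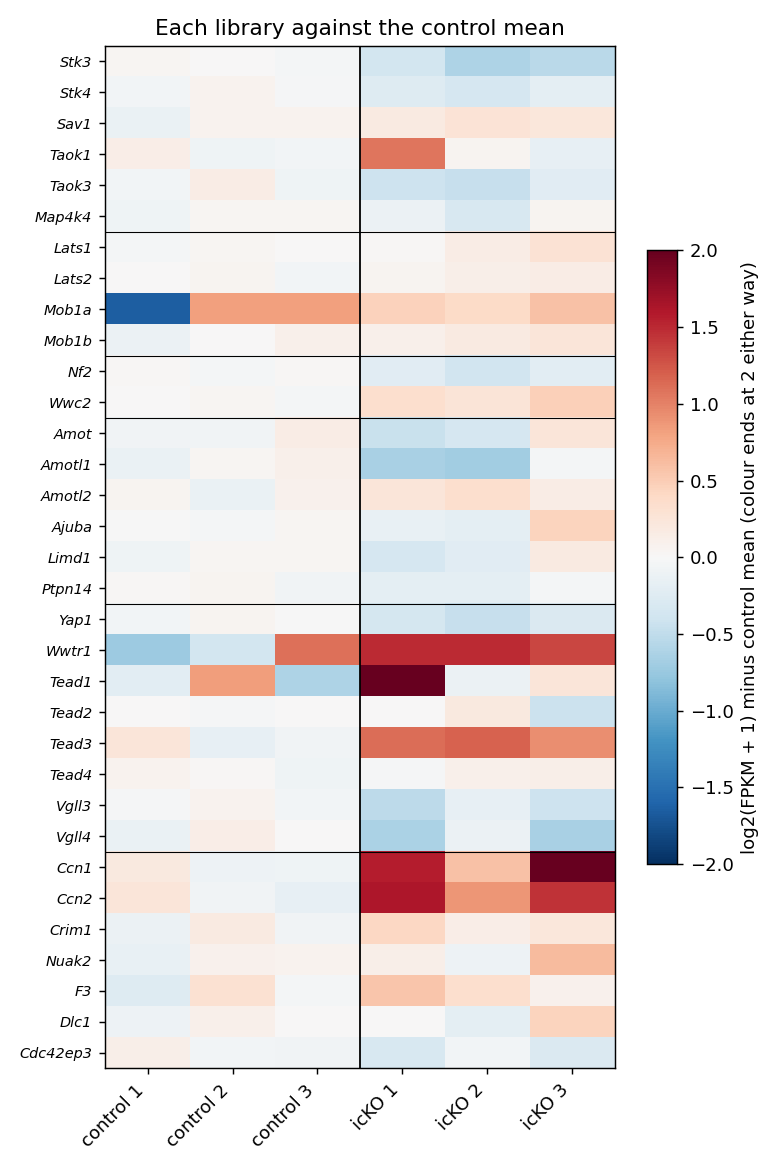
Each library's log2(FPKM + 1) minus the control mean for the 33 tested members, red above and blue below, with horizontal lines between the role groups and a vertical line between control and icKO. Ccn1, Ccn2, Wwtr1 and Tead3 are red in all 3 icKO columns, and Amot, Ajuba and Limd1 are blue in icKO replicates 1 and 2 and red in replicate 3, and Amotl1 is blue in replicates 1 and 2 and close to the control mean, slightly below it, in replicate 3.

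Of the 33 tested members, icKO replicate 3 had the highest value of the 3 icKO libraries in 19 and the lowest in 7. The same count was not made over all tested genes, so it is not a trait shown for the members alone. The median difference of all tested genes was -0.01, and -0.04 without icKO replicate 3. This library was also the icKO library with the most skeletal muscle transcript (1500 FPKM summed over 15 markers, against 25.1 and 40.1 FPKM). When the mean log2 level of 14 tested muscle markers per library was a covariate, 4 members rose and 3 fell (Stk3, Yap1, and Vgll4 in place of the others), and Amot had a difference of 0.01. The sums of the adipocyte markers and of the fibroblast markers were lower in every icKO library than in any control library, as given above. Of the 8 fibroblast markers taken singly, 5 fell, Pdgfra rose and 2 (Dcn and Pi16) did not pass. The part of these cell types in the falls of Yap1, Stk3, Stk4, Taok3, Nf2 and Vgll3 was not tested. Endothelial markers summed to 110.8 to 113 FPKM in control nerves against 87.1 to 102 FPKM in icKO nerves, with 1 of 9 higher and 3 lower. Mural cell markers summed to 232 to 333 and 164 to 228 FPKM, with 3 of 9 lower. None of 9 mural and 8 tested macrophage markers rose (none at an unadjusted limma p under 0.05 either). Macrophage markers summed to 67.4 to 152 and 90.5 to 93.8 FPKM, and perineurial markers to 164 to 170.3 and 155 to 173 FPKM. Itgb4 (means of 81.6 and 81.7 FPKM) and Slc2a1 (51.4 and 56.1 FPKM) made up most of the perineurial sum. Of 4 tested perineurial markers, 1 fell (Lypd2, means of 6.68 and 1.14 FPKM) and 3 did not pass. The 6 spinal motoneuron markers summed to 5.37 to 5.74 and 13.9 to 20.6 FPKM, with Mnx1 listed at 0 throughout. Of these 6, 4 were under 1 FPKM on average. Most of the rise of the sum was that of Nefl (means of 2.10 and 12.6 FPKM), beside Prph (3.43 and 4.51 FPKM). The part of all these cell types in the rises of members was not tested.

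Genes of the pathway beyond the members were taken from 5 lists, with 100 of 101 different entries matched. Of 87 tested, 9 rose (10.3%) and 17 fell (19.5%), against 20.8% and 22.1% of all tested genes. Among 31 tested further kinases, polarity proteins and membrane inputs, 5 rose and 5 fell (16.1% each, both below the shares of all tested genes). The largest rise was that of Rassf4, a RAS-association domain gene of the family that binds MST kinases, at 20.7, 13.2 and 15.8 FPKM in control nerves against 63.6, 70.2 and 39.6 FPKM in icKO nerves (difference 1.72, SE 0.25, limma adjusted p = 0.00258). Its relative Rassf1 rose from 4.61 ± 0.48 to 7.73 ± 1.11 FPKM and the polarity kinase gene Mark3 from 6.36 ± 0.67 to 10.2 ± 1.001 FPKM (SD, n = 3 each). These 3 passed in every alternative. Ctnna1, the alpha-catenin gene whose product retains YAP at adherens junctions, fell from 64.8 ± 11.1 to 39.2 ± 4.48 FPKM, and the tight junction scaffold gene Patj from 1.39 ± 0.04 to 0.63 ± 0.05 FPKM. Patj was below 1 FPKM in icKO nerves and met the filter only through its control level. It was tested in only 14 of the 18 alternatives, 3 of them leaving out a single library, and passed in these. Rassf3 fell from 13.2 ± 0.66 to 9.60 ± 1.395 FPKM, but not without control replicate 2 or 3 or icKO replicate 1, or with the muscle covariate (limma adjusted p up to 0.0725).

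STRIPAK is a phosphatase complex that switches off the MST kinases. Of 14 tested genes, 3 fell (21.4%, against 22.1% of all tested genes), none rose (against 20.8%) and 11 did not pass. At an unadjusted limma p under 0.05 there were 2 higher and 4 lower. Mob4, a MOB family subunit, fell from 7.61 ± 1.35 to 3.91 ± 0.63 FPKM (limma adjusted p = 0.00626), also in every alternative. Fgfr1op2 was at 14.4, 15.5 and 16.5 against 5.84, 6.19 and 13.1 FPKM, with icKO replicate 3 again nearest to control. Ppp2r1a, the scaffold subunit of protein phosphatase 2A, fell from 42.2 ± 1.35 to 34.1 ± 2.37 FPKM. The last 2 passed in 1 and 3 of the 6 fits leaving out a library.

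Of 20 tested genes that set the stability and location of YAP, 2 rose (10%), 5 fell (25%, against 22.1% of all tested genes) and 13 did not pass, so 35% were called against 42.9% of all tested genes. The 5 that fell were 14-3-3 genes, of which 6 were tested. Their proteins hold phosphorylated YAP in the cytoplasm. Ywhaq was at 86.8, 89.4 and 44.8 FPKM in control nerves against 30.3, 24.2 and 32.8 FPKM in icKO nerves (difference -1.26, SE 0.27, limma adjusted p = 0.0116). Ywhab fell from 63.9 ± 5.28 to 43.3 ± 5.93 FPKM, Ywhae from 164 ± 5.42 to 113 ± 19.3 FPKM, Ywhag from 26.5 ± 2.24 to 16.5 ± 4.58 FPKM and Ywhah from 41.5 ± 1.88 to 28.1 ± 6.13 FPKM (SD, n = 3 each). Ywhaz was at 38.9, 44.0 and 34.9 against 42.9, 30.1 and 53.1 FPKM and did not pass (limma adjusted p = 0.816). Ywhag and Ywhah passed in 2, Ywhae in 4, and Ywhab and Ywhaq in all 6 of the fits leaving out a library. Ywhaq just missed the threshold when both muscle-rich libraries were omitted (limma adjusted p = 0.05003). The table also lists the pseudogene Ywhaq-ps3, so the Ywhaq values may share fragments with a copy, and this subset was singled out after its values were seen. The 2 that rose were Csnk1e and Cul1. Csnk1e, a casein kinase that marks YAP for degradation, rose from 6.16 ± 0.34 to 10.4 ± 1.07 FPKM, and Cul1, of the ubiquitin ligase that follows, from 17.5 ± 1.13 to 22.7 ± 1.92 FPKM. Csnk1e passed in every alternative, and Cul1 in 3 of the 6 fits leaving out a library.

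**Figure D5:**
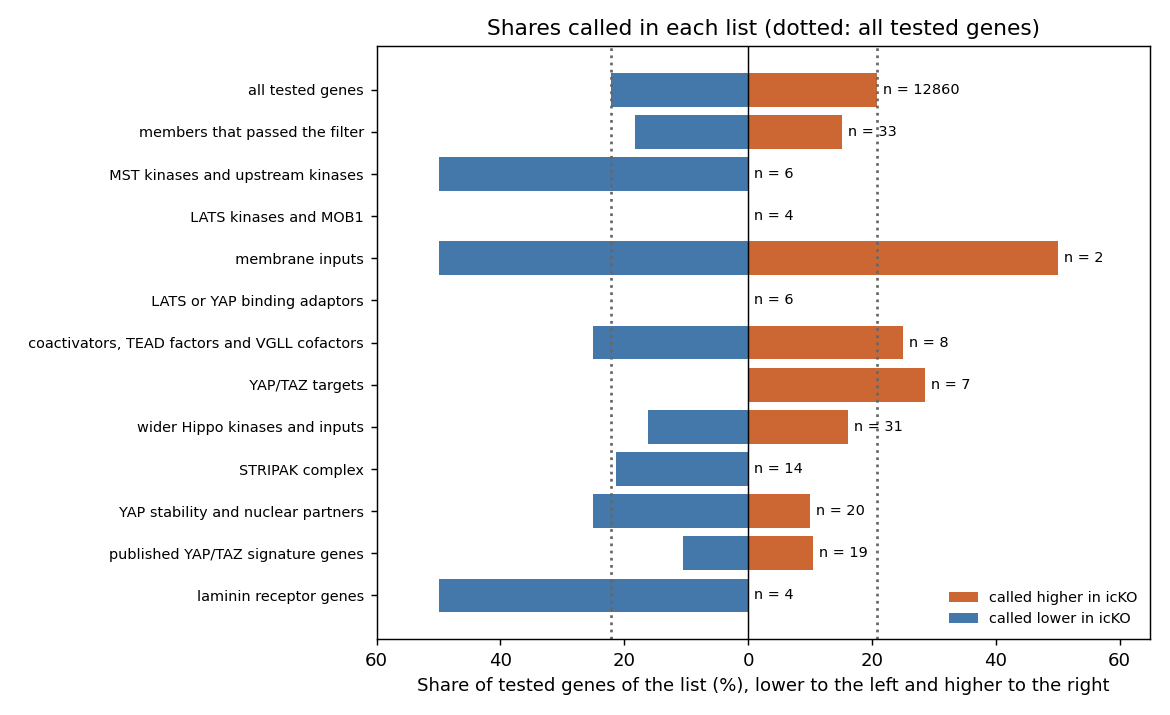
Share of tested genes called higher (right) and lower (left) in icKO nerves for all tested genes, the 33 tested members, their role groups and the 5 further lists, with the number tested beside each bar and dotted lines at the shares of all tested genes (20.8% higher, 22.1% lower). The members as a set lie inside the dotted lines, and the role groups hold 2 to 8 genes each.

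Further genes of published YAP/TAZ signatures did not move as a group. Of 19 tested, 2 rose and 2 fell (10.5% each, against 20.8% and 22.1% of all tested genes) and 15 did not pass, with a median difference of -0.13. Igfbp3, a secreted binding protein of insulin-like growth factors, was at 9.79, 16.98 and 10.9 FPKM in control nerves against 50.6, 74.3 and 64.6 FPKM in icKO nerves (difference 2.26, SE 0.22, limma adjusted p = 0.000879), and the receptor tyrosine kinase gene Axl at 21.9, 35.7 and 30.3 against 49.9, 53.9 and 43.2 FPKM (limma adjusted p = 0.0175). Fstl1, a secreted glycoprotein gene of fibroblasts, fell from 95.7 ± 21.3 to 38.8 ± 7.89 FPKM and Rbms3 from 3.57 ± 0.46 to 2.40 ± 0.20 FPKM. Igfbp3 and Fstl1 passed in every alternative, while Axl did not pass without icKO replicate 1 or 2, nor Rbms3 without control replicate 2 or 3. Of 4 laminin receptor genes reported to depend on YAP and TAZ in Schwann cells, Itga6 was at 75.6, 84.1 and 81.5 FPKM in control nerves against 43.0, 37.02 and 50.9 FPKM in icKO nerves, a fall that passed in every alternative (difference -0.88, SE 0.13, limma adjusted p = 0.00261). Dag1, dystroglycan, fell from 184 ± 7.69 to 132 ± 24.8 FPKM (limma adjusted p = 0.0315) and passed in 2 of the 6 fits leaving out a library. Itgb1 (149 and 136 FPKM) and Itgb4 (81.6 and 81.7 FPKM) did not pass.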

How the data were processed

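RNA from 6 sciatic nerve lysates was sequenced, 3 per group. The authors deposited FPKM per gene. The submitters' processing notes list StringTie 1.3.1c, STAR, FastQC 0.11.2, the build GRCm39 and DESeq2 1.16.1, and no source used here gives their order or settings. Of 55335 gene IDs, 55154 matched a symbol. FPKM are not counts, so limma 3.58.1 (R 4.3.3, variance trend) was run on log2(FPKM + 1) for the 12860 genes averaging 1 FPKM or more, with Benjamini-Hochberg adjustment over all of them and calls at an adjusted p of 0.05. A log2(FPKM + 1) difference understates the change of low genes. Values assigned to transcripts by estimation can shift between overlapping or copied genes. The test was run on simulated data with independent noise and few changed genes. In these data 42.9% of tested genes were called and muscle transcripts were uneven, so that run does not vouch for the calls. All members are named, and from each further list up to 3 rises and 3 falls, the largest among called genes without overlap, plus Rhoa and Chat. The members, lists and tests were chosen with earlier results of these data known. Promoters came from RefSeq (GRCm38.p6), and gene coordinates on GRCm39 were not used here. The alternatives covered pseudocounts, filters, scaling, variance model, replicate block, left-out libraries and a muscle covariate.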

Additional observations from a re-analysis of the deposited data

How the results depend on the processing

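Of the 11 members that passed, Stk3, Yap1, Tead3 and Ccn2 did so in all 18 alternatives, Yap1 with a limma adjusted p of up to 0.04998. Stk4, Taok3, Nf2, Vgll3 and Wwtr1 passed in 1 of the 6 fits leaving out a library. The count of members that rose (5) was 3 without a filter and 3 without the 2 muscle-rich libraries, and 3 to 4 with 1 library left out. The count that fell (6) was 3 with the muscle covariate and 2 to 7 with 1 library left out. Control replicates 2 and 3 and icKO replicate 1 each left 3 rises and 2 falls when removed, and control replicate 1 left 3 falls. The median difference of the members (0.09) was -0.075 without the 2 muscle-rich libraries and 0.04 to 0.15 with 1 library left out. That of all tested genes (-0.01) was -0.058 without the 2 muscle-rich libraries. All tested genes called (5516) were 3308 at a mean of at least 5 FPKM, where fewer genes were tested, and 3728 to 5476 with 1 library left out. Some differences that had not passed changed sign. Without the 2 muscle-rich libraries these were Mob1a (-0.40), Ajuba (-0.18), Tead2 (0.11), Nuak2 (-0.075), Dlc1 (-0.14) and Ywhaz (-0.12). Amot was 0.0060 with the muscle covariate. With 1 library left out, the range was -0.35 to 0.89 for Mob1a (lowest without control replicate 1), -0.058 to 0.56 for Taok1 (lowest without icKO replicate 1), and, with the change of sign without icKO replicate 3, -0.18 to 0.15 for Ajuba, -0.21 to 0.10 for Tead2, -0.092 to 0.23 for Dlc1 and -0.12 to 0.28 for Ywhaz, which was also -0.013 without control replicate 3. Apart from the smaller number of samples or genes, the cause was not tested. No pairing by replicate number was visible, as deviations of same-numbered libraries correlated at -0.10, 0.04 and -0.05 and those of other pairs at -0.07 to 0.11. With 3 libraries per group, these correlations cannot exclude a pairing. With the replicate block, 5 members rose, 4 fell and 4596 genes were called. Tested members rested on about 44 fragments (Nuak2) or more per library, and Ankrd1 was too low to compare.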
